A study of Mus musculus with 6 samples.

Results

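The genes described here are 33 mouse genes of the T cell lineage, namely the CD3 chains of the T cell receptor complex, the CD8 chains, surface and costimulatory receptors, receptor signalling proteins, lineage transcription factors and cytokine receptors. They were taken as the rows of the count files whose Entrez GeneID belongs to one of the listed symbols, which gave 33 of 27179 genes, and Cd4 itself was left out of them. RNA-seq had been performed on A20, an established B cell lymphoma line of BALB/C origin, in 3 groups of 2 replicates. Wild-type A20 cells carried no activator. The control sgRNA and Cd4 sgRNA groups both carried TETact-v3, a lentiviral CRISPR system that brings the TET1 catalytic domain and a p65-HSF1 activator to the site of the guide, with either a non-targeting sgRNA or one against the Cd4 promoter, and were collected on day 7 after sgRNA transduction. The transduced groups shared every vector and the sort for its fluorescent reporters, so that Cd4 sgRNA against control sgRNA compares the guides, whereas in both comparisons with wild type the vectors, the transduction and the sort cannot be told apart from each other. Both of these use the same wild-type libraries, and all 3 comparisons share groups in pairs. The question asked of the genes was whether forcing Cd4 on in a B cell line was accompanied by other genes of the T lineage.

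A T cell receptor has no signalling tail of its own and signals through the CD3 and zeta chains. The kinase LCK, carried by the CD4 or CD8 coreceptor, phosphorylates these chains, and ZAP70 docks on them and phosphorylates the adaptors LAT and SLP-76 (gene Lcp2). B cells run a parallel cascade from CD79A and CD79B through LYN, BLK, SYK and BLNK, so that most of the T cell parts have a B cell counterpart. Among the lineage factors, ThPOK (gene Zbtb7b) directs thymocytes to the CD4 lineage and RUNX3 to the CD8 lineage, where it silences Cd4, TOX is needed for CD4 T cell development, and GATA3, T-bet (gene Tbx21) and FOXP3 mark T helper and regulatory subsets.

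Cd4 itself separated the groups. It had 37 and 17 reads in wild-type A20, 127 and 124 in control sgRNA cells, and 30959 and 40422 in Cd4 sgRNA cells. The log2 fold change of Cd4 sgRNA over control sgRNA was 9.46 (SE 0.17) with an adjusted p of 1.34e-05. Adjusted p-values here and below are two-sided and come from the quasi-likelihood test of edgeR, adjusted by the Benjamini-Hochberg method over the 12418 genes tested in one fit of all 6 libraries. Between control sgRNA and wild type the log2 fold change of Cd4 was 0.73 (SE 0.23), with an adjusted p of 0.0631.

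Depth differed between the groups, from 23194920 and 49778949 total counts in wild type, through 35316997 and 48466039 in Cd4 sgRNA cells, to 92285875 and 121623410 in control sgRNA cells. A count of 3, taken as the detection floor, corresponded to 0.0270 CPM (reads relative to the TMM-scaled library size) in the deepest library and to 0.140 CPM in the shallowest. The control sgRNA replicates stood further apart than those of the other groups, with a median absolute log2 difference per gene of 0.275 against 0.0838 in wild type and 0.0861 in Cd4 sgRNA cells. By the same measure control sgRNA replicate 1 lay nearer to the Cd4 sgRNA libraries (0.153 and 0.171) than to control sgRNA replicate 2. That replicate 2 lay at 0.346 and 0.37 from the Cd4 sgRNA libraries. Mitochondrial genes took 11.5% of the counts in control sgRNA replicate 2, 6.63% in control sgRNA replicate 1, 5.96% and 6.90% in Cd4 sgRNA cells and at most 2.69% in wild type. B identity genes were present in every library, as the B cell label requires, with a summed level of 4996 to 5107 CPM in wild type, 3051 to 3275 CPM in control sgRNA cells and 3024 to 3044 CPM in Cd4 sgRNA cells. The 6 libraries are bulk RNA, in which fewer cells with a transcript and less of it per cell cannot be told apart.

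Most T lineage genes were at or near 0 reads in all groups, with and without forced Cd4. Of the 33 genes, 8 passed the expression filter (Cd2, Cd5, Cd28, Lck, Lcp2, Tox, Runx3 and Zbtb7b) and 25 did not. No read was assigned in any of the 6 libraries to Cd3e, Cd8b1, Pdcd1, Cd40lg, Themis or Tbx21. Another 9 genes had at least 1 read but never more than 3 in a library, which leaves 10 untested genes with more than 3 reads in at least 1 library. These low values limit what was detectable at this depth and do not show that the genes are fully silent.

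**Figure D1:**
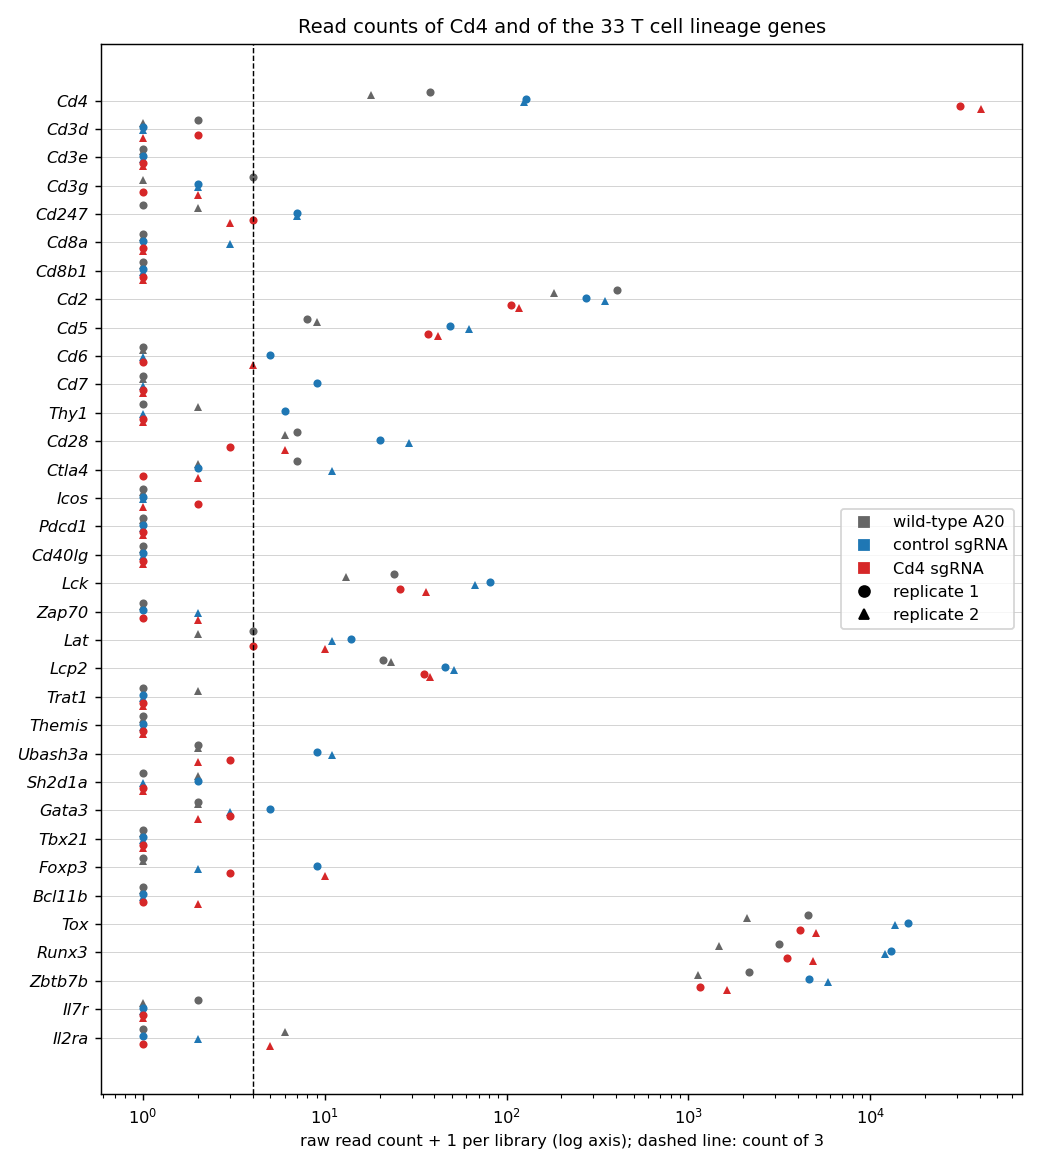
Raw read count plus 1 (log axis) of Cd4 and the 33 T cell lineage genes in each library, coloured by group, with circles for replicate 1 and triangles for replicate 2. Cd4 reaches 30959 and 40422 reads in Cd4 sgRNA cells, whereas Tox, Runx3 and Zbtb7b lie to the right of the other T lineage genes in every library and 15 genes stay at or left of the dashed line at 3 reads.

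The receptor complex was not detected as a set. The 4 genes for the CD3 and zeta chains gave no more than 6 reads in any library. Cd3e had 0 in all of them, Cd3d had 1 in wild-type replicate 1 and 1 in Cd4 sgRNA replicate 1, and Cd3g had 3 in wild-type replicate 1 and at most 1 elsewhere. Cd247, which encodes the zeta chain, had 0 and 1 reads in wild type, 6 and 6 in control sgRNA cells and 3 and 2 in Cd4 sgRNA cells, and its locus overlaps the expressed gene Pou2f1. The CD8 chains, which form the coreceptor of the other T cell lineage, had 2 reads of Cd8a in control sgRNA replicate 2 and 0 in all the other libraries for both genes. By contrast, Cd4 in the Cd4 sgRNA libraries lay at 10320 and 13470 times the level of 3 counts.

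Promoter sequences put the undetected receptor genes beside detected ones. TETact-v3 combines demethylation with activation, and cytosine methylation in mammals sits mainly at CG dinucleotides, so these are shown in capitals. The following are the 250 bases upstream of the annotated start in RefSeq (GRCm38.p6, the mm10 build), 5′ to 3′ on the gene's own strand, for 4 genes at no more than 3 reads in any library (Cd3d, Cd3g, Cd3e and Cd8a) and for 2 genes that passed the filter (Cd5 and the downstream of the annotated Runx3 starts).
Cd3d (chr9:44981536-44981785, + strand): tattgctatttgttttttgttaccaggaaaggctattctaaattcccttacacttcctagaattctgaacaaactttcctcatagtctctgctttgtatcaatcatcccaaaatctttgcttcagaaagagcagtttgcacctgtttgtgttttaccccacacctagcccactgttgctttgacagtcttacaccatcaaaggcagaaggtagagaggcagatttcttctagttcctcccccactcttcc
Cd3g (chr9:44980432-44980681, - strand): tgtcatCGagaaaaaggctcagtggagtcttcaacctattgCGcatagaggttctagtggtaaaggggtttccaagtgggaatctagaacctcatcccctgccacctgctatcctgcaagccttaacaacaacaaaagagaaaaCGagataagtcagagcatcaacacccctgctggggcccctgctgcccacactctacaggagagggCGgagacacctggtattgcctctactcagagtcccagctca
Cd3e (chr9:45009612-45009861, - strand): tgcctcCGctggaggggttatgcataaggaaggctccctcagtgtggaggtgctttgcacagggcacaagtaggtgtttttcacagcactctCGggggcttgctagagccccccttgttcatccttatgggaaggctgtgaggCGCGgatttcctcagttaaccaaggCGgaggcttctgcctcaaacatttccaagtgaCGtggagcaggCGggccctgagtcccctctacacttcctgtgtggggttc
Cd8a (chr6:71373177-71373426, + strand): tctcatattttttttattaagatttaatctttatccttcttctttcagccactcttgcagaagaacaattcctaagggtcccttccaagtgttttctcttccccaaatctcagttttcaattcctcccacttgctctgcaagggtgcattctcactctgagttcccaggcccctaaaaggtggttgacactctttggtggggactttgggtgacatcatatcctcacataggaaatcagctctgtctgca
Cd5 (chr19:10738975-10739224, - strand): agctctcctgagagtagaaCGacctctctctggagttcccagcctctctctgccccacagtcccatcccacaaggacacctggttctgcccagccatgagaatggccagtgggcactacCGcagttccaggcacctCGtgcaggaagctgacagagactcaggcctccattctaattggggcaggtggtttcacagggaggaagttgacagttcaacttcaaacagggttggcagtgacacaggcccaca
Runx3 (chr4:135152295-135152544, + strand): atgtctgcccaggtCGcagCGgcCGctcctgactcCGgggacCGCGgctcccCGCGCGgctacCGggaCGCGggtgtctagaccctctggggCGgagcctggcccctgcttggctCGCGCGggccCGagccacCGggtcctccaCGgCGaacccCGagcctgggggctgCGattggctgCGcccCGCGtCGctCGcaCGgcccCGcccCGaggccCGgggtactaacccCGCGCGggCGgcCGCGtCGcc
Counted over the 300-base window that also holds the 50 bases after the start, the CG number was 1 for Cd3d, 4 for Cd3g, 8 for Cd3e, 3 for Cd8a, 3 for Cd5 and 45 for this Runx3 start. Cd3d and Cd8a held no CG at all in the 250 bases printed. A window was given for 23 of the 33 genes, 30 windows in all, and 90.0% of these held at most 10 CG dinucleotides, against 58.6% of all 32851 windows. The medians lay close together, at 6 for these windows and 7 for all windows. Among the genes with a window, a low CG number was found in detected and undetected genes alike. Cd2, Cd28 and Tox, which passed the filter, had no window, and the upstream Runx3 start held 8. Every window was at or under 10 in 16 of 18 untested genes and in 4 of 5 tested ones, Lcp2 had 0 with reads in every library, and the undetected Tbx21 had 21. Methylation at these sites was not analysed here. The paper describes Cd3d, Cd3e and Cd3g as heavily methylated in B cells. It reports loss of methylation at their promoters in A20 cells when TETact was guided to each of them.

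**Figure D2:**
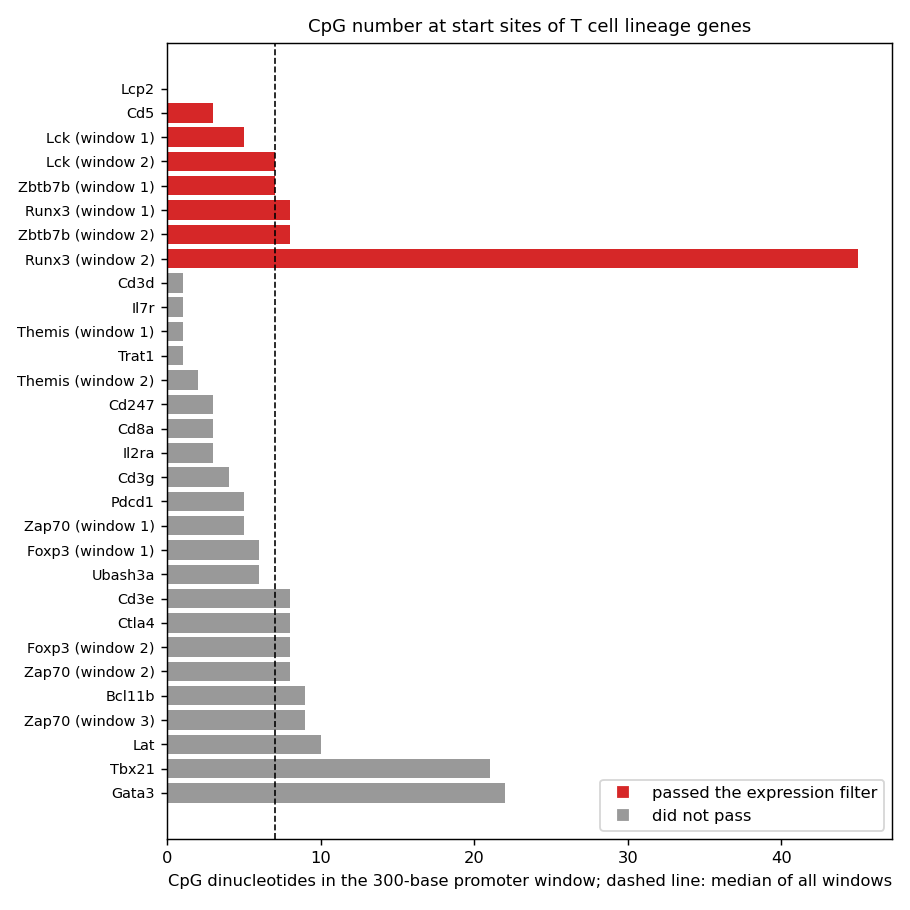
Number of CG dinucleotides in each 300-base promoter window of the T cell lineage genes, in red for genes that passed the expression filter and in grey for the rest, with the median of all windows (7) as a dashed line. Red and grey bars cover the same low range, and the longest bar is the downstream Runx3 start at 45.

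Cd2 and Cd5 were the surface receptors with reads in every library, and they differed from wild type in opposite directions. Cd2 (Entrez 12481, chr3:101275908-101287939), an adhesion receptor of T and NK cells that mouse B cells also carry, had 8.67 and 8.50 CPM in wild type, 2.44 and 4.28 in control sgRNA cells and 3.20 and 2.62 in Cd4 sgRNA cells. Both transduced groups lay below wild type without overlap, and overlapped each other. Cd5 (Entrez 12507, chr19:10718107-10739026), a T cell surface glycoprotein that a subset of B cells also carries, had 0.151 and 0.374 CPM in wild type, 0.432 and 0.754 in control sgRNA cells and 1.10 and 0.926 in Cd4 sgRNA cells. The groups did not overlap in that order, although the wild-type values rest on 7 and 8 reads. Cd6, a close relative of Cd5, had at most 4 reads in a library, Cd7 had 8 in control sgRNA replicate 1 alone and Thy1 had 5 in that library and at most 1 elsewhere.

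Of the costimulatory receptors, Cd28 alone passed the filter. Cd28 (Entrez 12487, chr1:60746388-60773359), the main costimulatory receptor of naive T cells, had 6 and 5 reads in wild type, 19 and 28 in control sgRNA cells and 2 and 5 in Cd4 sgRNA cells. Scaled for depth these were 0.129 and 0.234 CPM, 0.171 and 0.346 CPM, and 0.0610 and 0.113 CPM, so that the Cd4 sgRNA libraries were the lowest and wild type overlapped control sgRNA. Its inhibitory relative Ctla4 had 6 and 1 reads in wild type, 1 and 10 in control sgRNA cells and 0 and 1 in Cd4 sgRNA cells. Icos gave 1 read in all, and Pdcd1 and Cd40lg gave 0.

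Lck and Lcp2 were the receptor signalling genes above the filter, both at low level. Lck (Entrez 16818, chr4:129548344-129573641) had 0.495 and 0.560 CPM in wild type, 0.720 and 0.816 in control sgRNA cells and 0.763 and 0.791 in Cd4 sgRNA cells, with the transduced groups interleaved and above wild type. Lcp2 (Entrez 16822, chr11:34046928-34092281) had 0.430 and 1.03 CPM in wild type, 0.405 and 0.618 in control sgRNA cells and 1.04 and 0.836 in Cd4 sgRNA cells. Wild type spanned most of that range, and Cd4 sgRNA lay above control sgRNA. Zap70 had 1 read in control sgRNA replicate 2, 1 in Cd4 sgRNA replicate 2 and 0 elsewhere. Lat had 3 and 1 reads in wild type, 13 and 10 in control sgRNA cells and 3 and 9 in Cd4 sgRNA cells. Ubash3a, a negative regulator of receptor signalling, had 8 and 10 reads in the deep control sgRNA libraries and at most 2 elsewhere. Trat1 and Sh2d1a never exceeded 1 read, and Themis had 0.

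The B cell counterparts of these proteins were expressed at much higher levels per length in every library. Values in this paragraph are RPKM, computed from the counts, the counted gene length and the TMM-scaled library size, as means of 2 libraries with their SD. Syk was at 72.0 ± 1.9 in wild type, 49.2 ± 4.0 in control sgRNA cells and 61.9 ± 2.9 in Cd4 sgRNA cells, where Zap70 had at most 1 read per library. Blnk was at 160 ± 3.6, 96.5 ± 4.0 and 101.6 ± 3.0 in the same order, while Lcp2 was at 0.218 ± 0.126, 0.153 ± 0.045 and 0.280 ± 0.043. Library by library, Blnk exceeded Lcp2 between 334.5 and 1225 times. Lat2 exceeded Lat between 370.7 and 3139 times, with Lat resting on 1 to 13 reads. For the Src-family kinases the gap was smaller, as Lyn exceeded Lck between 37.4 and 98.1 times and Blk exceeded Lck between 17.2 and 32.5 times.

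**Figure D3:**
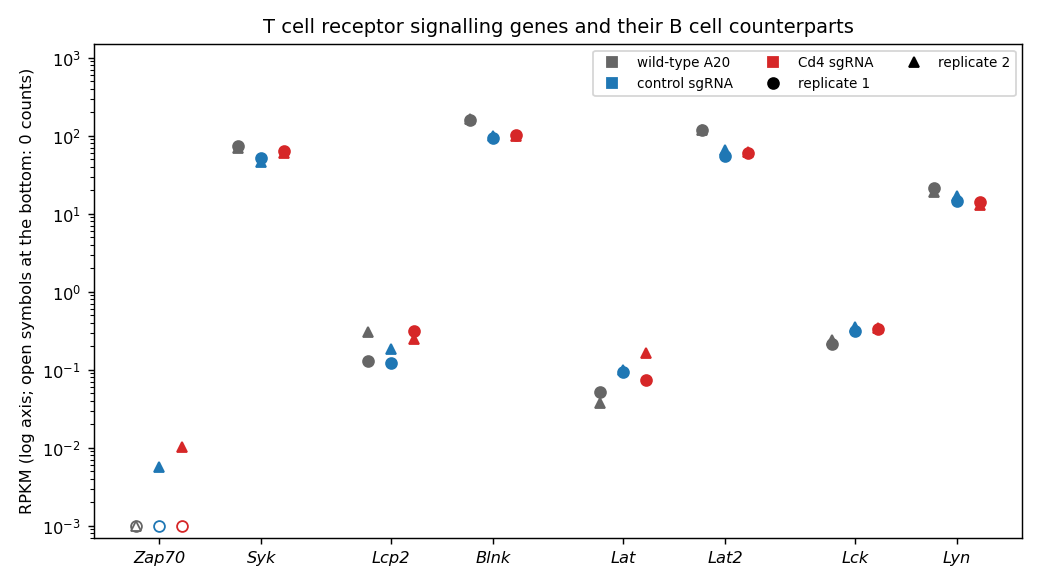
RPKM (log axis) of T cell receptor signalling genes and, to the right of each, the B cell counterpart, with 1 symbol per library coloured by group. Open symbols at the bottom are libraries with 0 reads, and every B cell gene plotted (Syk, Blnk, Lat2 and Lyn, without Blk) lies above 10 RPKM while every T cell gene lies below 1 RPKM.

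Tox, Runx3 and Zbtb7b held between 95.1% and 98.5% of all reads of the 33 genes in each library. Tox (Entrez 252838, chr4:6686353-6991557) had 98.2 and 98.1 CPM in wild type, 144.7 and 169.8 in control sgRNA cells and 124.5 and 112.9 in Cd4 sgRNA cells. The groups did not overlap, with control sgRNA highest and wild type lowest. Runx3 (Entrez 12399, chr4:135120645-135177990) had 68.1 and 68.6 CPM in wild type, 117.7 and 149.7 in control sgRNA cells and 106.6 and 108.9 in Cd4 sgRNA cells, in the same order and without overlap. Zbtb7b (Entrez 22724, chr3:89377644-89393673) had 46.3 and 52.5 CPM in wild type, 41.5 and 72.2 in control sgRNA cells and 35.1 and 36.7 in Cd4 sgRNA cells. Its control sgRNA replicates fell on either side of wild type, and the Cd4 sgRNA libraries were below all others.

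Per length, Tox was at 34.4, 55.2 and 41.6 mean RPKM in wild type, control sgRNA and Cd4 sgRNA cells, Runx3 at 17.6, 34.4 and 27.7 and Zbtb7b at 13.4, 15.4 and 9.73. In the Cd4 sgRNA cells Cd4 was at 300.2 mean RPKM. Of the other lineage factors, Gata3 had at most 4 reads in a library, Bcl11b at most 1 and Tbx21 none. Foxp3 had 0 and 0 reads in wild type, 8 and 1 in control sgRNA cells and 2 and 9 in Cd4 sgRNA cells, with replicates far apart in both, and its locus overlaps Ccdc22. The cytokine receptor genes Il7r and Il2ra had at most 1 and 5 reads.

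**Figure D4:**
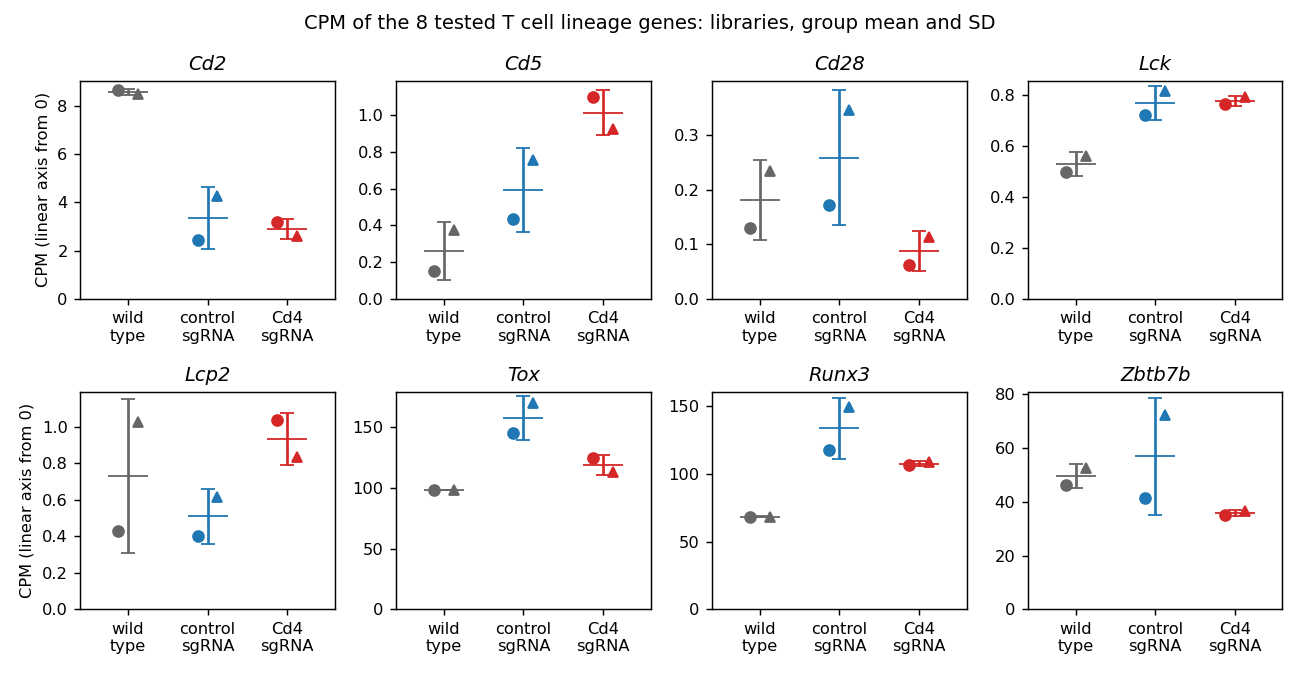
CPM (linear axes from 0) of the 8 T cell lineage genes that passed the filter, with 1 symbol per library (circle for replicate 1, triangle for replicate 2), the group mean as a horizontal line and the SD as error bars (n = 2). Tox and Runx3 are lowest in wild type, Cd2 is highest there, and the control sgRNA replicates of Zbtb7b lie at 41.5 and 72.2 CPM.

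Of the tested T lineage genes, none was called between the guides in the main test, as held for nearly all genes tested. The other 25 genes were not tested, so no call could be made for them. Between Cd4 sgRNA and control sgRNA cells, 0 of the 8 tested genes passed an adjusted p of 0.05 in edgeR's quasi-likelihood test, where 0.0725% of all genes tested did (0.0242% higher and 0.0483% lower). The study's test, voomLmFit, also called 0, and DESeq2 called 1, Tox. At an unadjusted p under 0.05 there were 3 of 8, namely Tox, Runx3 and Zbtb7b, all lower, against 24.9% of all genes. In 6 of 8 the groups did not overlap, 2 higher and 4 lower in Cd4 sgRNA cells, against 59.7% of all genes (29.5% higher and 30.2% lower). The median log2 fold change was -0.25 over the 8 genes and -0.01 over all genes tested.

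The size of change that the data allow differed between the genes. The log2 fold change of Cd4 sgRNA over control sgRNA was -0.41 for Tox (95% interval -0.67 to -0.14, adjusted p = 0.135), -0.31 for Runx3 (-0.61 to -0.01, adjusted p = 0.196) and -0.66 for Zbtb7b (-1.27 to -0.05, adjusted p = 0.183). None of these intervals reached above 0, before adjustment for many genes. They rest on 1 estimate of spread per gene over all 3 groups, whereas the control sgRNA replicates stood further apart than the others. With only these 2 groups in the edgeR fit, adjusted p was 0.324 for Tox, 0.351 for Runx3 and 0.328 for Zbtb7b. Their log2 fold changes in that fit were -0.40, -0.31 and -0.66 in the same order. No interval is given for that fit, so a rise of these factors is not called excluded. Lck was at 0.03 (-0.59 to 0.65, adjusted p = 0.946) and Cd2 at -0.20 (-0.96 to 0.57, adjusted p = 0.700). Cd5 was at 0.80 (-0.14 to 1.74, adjusted p = 0.244), Lcp2 at 0.89 (-0.13 to 1.91, adjusted p = 0.239) and Cd28 at -1.42 (-3.10 to 0.27, adjusted p = 0.25), intervals that leave room for changes of several fold.

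The sizes of these differences depended on the control sgRNA replicates. Leaving 1 of them out removes the spread of the group whose replicates stood furthest apart, so only log2 fold changes are given. Without control sgRNA replicate 1 and without replicate 2, in that order, Zbtb7b was at -1.01 and -0.21 and Tox at -0.52 and -0.29. Runx3 was at -0.47 and -0.13, Cd28 at -1.897 and -0.895 and Cd2 at -0.57 and 0.24. Cd5 was at 0.41 and 1.21 and Lcp2 at 0.58 and 1.18.

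**Figure D5:**
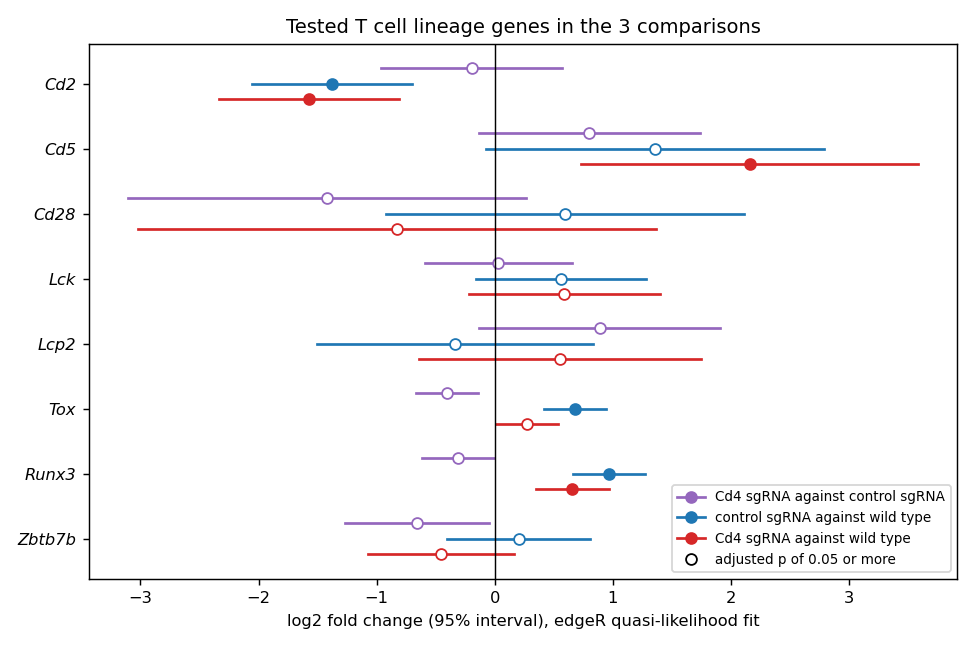
Log2 fold change with its 95% interval for the 8 tested T cell lineage genes in the 3 comparisons, with filled circles for an adjusted p under 0.05 and open circles otherwise. No circle is filled for Cd4 sgRNA against control sgRNA, and against wild type Cd2 lies left of 0 and Runx3 right of 0 in both transduced groups.

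Against wild type, Runx3 and Cd2 were called with both guides, Tox with the control sgRNA alone and Cd5 with the Cd4 sgRNA alone. With 8 genes tested, the numbers called are given beside the shares of all genes and are not read as a trait of the T lineage genes. In control sgRNA cells 3 of the 8 genes were called, against 28.0% of all genes tested (14.5% higher and 13.5% lower). Tox and Runx3 were higher, with log2 fold changes of 0.68 (SE 0.11, adjusted p = 0.00856) and 0.97 (SE 0.13, adjusted p = 0.00495), and Cd2 was lower at -1.38 (SE 0.28, adjusted p = 0.0173). In 5 of 8 the groups did not overlap, 4 higher and 1 lower, against 67.1% of all genes (33.3% and 33.8%), and 3 of 8 had an unadjusted p under 0.05, against 42.6%. The other 5 were at 1.36 for Cd5 (adjusted p = 0.133), 0.59 for Cd28 (0.509), 0.56 for Lck (0.200), -0.34 for Lcp2 (0.631) and 0.20 for Zbtb7b (0.569), where the bracketed values are adjusted p. The median over the 8 genes was 0.58, against 0.00 over all genes tested.

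In Cd4 sgRNA cells against wild type 3 of the 8 genes were called, against 20.5% of all genes tested (9.85% higher and 10.7% lower). Cd5 was higher at a log2 fold change of 2.16 (SE 0.59, adjusted p = 0.0484), Runx3 was higher at 0.66 (SE 0.13, adjusted p = 0.0201) and Cd2 was lower at -1.57 (SE 0.31, adjusted p = 0.0215). In 7 of 8 the groups did not overlap, 4 higher and 3 lower, against 79.8% of all genes (40.4% and 39.4%), and 4 of 8 had an unadjusted p under 0.05, against 37.6%. Tox was at 0.27 (adjusted p = 0.122), Lck at 0.59 (0.248), Lcp2 at 0.55 (0.455), Cd28 at -0.83 (0.547) and Zbtb7b at -0.46 (0.243), again with adjusted p in brackets. The median over the 8 genes was 0.41, against 0.00 over all genes. Cd5 lost its call under voomLmFit and with a replicate block (adjusted p = 0.0596), and its difference between the transduced groups was not called (above).

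The calls against wild type did not hold once either wild-type library was left out, though the folds of most of the genes called moved little. Such a fit takes its spread from the transduced groups alone, so the loss of calls is not read as a trait of a wild-type library. In control sgRNA against wild type the log2 fold change was then 0.99 and 1.00 for Runx3, 0.70 and 0.70 for Tox and -1.33 and -1.36 for Cd2, close to the values with all libraries. In Cd4 sgRNA against wild type it was 0.68 and 0.69 for Runx3 and -1.53 and -1.56 for Cd2, whereas Cd5 moved to 1.44 and 2.74. For Cd4 sgRNA against wild type the calls also did not hold with either Cd4 sgRNA library left out, which again leaves 1 library in a group. Leaving out a control sgRNA library removes the spread of the group whose replicates stood furthest apart, so calls from those fits are not given. For control sgRNA against wild type, Zbtb7b was at 0.58 without control sgRNA replicate 1 and at -0.24 without replicate 2. The higher mitochondrial share and lower B identity level of the transduced groups moved with these differences, and their part in them was not tested.

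The 25 untested genes together gave 16 and 13 reads in wild type, 59 and 44 in control sgRNA cells and 14 and 33 in Cd4 sgRNA cells. Scaled for depth these sums were 0.344 and 0.607 CPM, 0.531 and 0.544 CPM, and 0.427 and 0.746 CPM, so that the groups overlapped. More than 3 reads in every library were found for 8 genes in wild type, 11 in the deeper control sgRNA group, where Cd247, Lat and Ubash3a joined, and 7 in Cd4 sgRNA cells, where Cd28 dropped out. At a level of at least 0.5 CPM in every library, which does not move with depth in the same way, the numbers were 4, 5 and 7, with Cd4 sgRNA highest, so that neither order is reported as a difference.

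Among 45 other genes of T cell function, 22 passed the filter and 0 were called between Cd4 sgRNA and control sgRNA cells, with 8 at an unadjusted p under 0.05 (24.9% of all genes tested), 7 called by DESeq2 and 0 by voomLmFit. Against wild type, the control sgRNA cells had 2 of the 22 called higher and 3 lower (14.5% and 13.5% of all genes tested), and the Cd4 sgRNA cells had 3 called higher and 5 lower (9.85% and 10.7% of all genes). Tnfrsf9, the costimulatory receptor 4-1BB, had 0 and 1 reads in wild type, 125 and 80 in control sgRNA cells and 53 and 60 in Cd4 sgRNA cells, and was called higher in both (adjusted p = 0.00463 and 0.00543). Sit1, a lymphocyte signalling adaptor, had 0.151 and 0.0934 CPM in wild type, 0.774 and 1.03 in control sgRNA cells and 0.855 and 0.994 in Cd4 sgRNA cells, and was also called higher in both. Fyn, a Src-family kinase of receptor signalling, was called lower in both, at -1.08 (SE 0.26) in control sgRNA and -1.40 (SE 0.26) in Cd4 sgRNA cells, as was Il2rg, the common cytokine receptor chain, at -0.38 (SE 0.08) and -0.42 (SE 0.08).

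Vav1, an exchange factor downstream of antigen receptors, was called lower in control sgRNA cells at -0.56 (SE 0.08) and was at -0.08 in Cd4 sgRNA cells (adjusted p = 0.497). Ets1 and S1pr1 were called lower in Cd4 sgRNA cells at -0.96 (SE 0.15) and -1.34 (SE 0.32), and Nfatc1 higher at 0.37 (SE 0.10), while Nfatc2 was at 0.47 (adjusted p = 0.198). In control sgRNA cells Sh2d2a was at 1.42 (adjusted p = 0.0573). Grap2 was the other gene called lower in Cd4 sgRNA cells, at -1.51 (SE 0.38), and is named because it completes that count. Of the T cell cytokine genes of the list, Il2, Ifng and Il21 had no read in any library and Il4 had at most 3.

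B identity genes stayed at high levels in the Cd4 sgRNA cells. Of 13 such genes, 0 were called between the guides, and 4 had an unadjusted p under 0.05, against 24.9% of all genes tested. Against wild type 1 was called higher and 5 lower in each transduced group, where 13.5% of all genes were lower in control sgRNA and 10.7% in Cd4 sgRNA cells. Cd79a was at 451.4 mean CPM in wild type, 236.1 in control sgRNA and 224.9 in Cd4 sgRNA cells, and Cd79b at 656.4, 436.7 and 356.3, with each lower than wild type in both transduced groups at adjusted p of at most 0.0451. Ms4a1 was at 352.2, 297.4 and 302.4 mean CPM and Pax5, the B lineage factor, at 75.6, 60.7 and 69.8, neither of them called. The NK and cytotoxic markers Ncr1, Nkg7, Gzma and Gzmb had 0 reads in every library, while Klrb1c and Prf1 were under 1 CPM and Prf1 was called lower than wild type in both transduced groups. The stromal list summed to 1.16 to 1.17 CPM in wild type, 5.41 to 10.3 in control sgRNA and 1.40 to 1.65 in Cd4 sgRNA cells, carried mostly by Pdgfrb, which was called higher in control sgRNA cells than in wild type. Of the myeloid list Cd68 held 229.4 to 270.4 mean RPKM per group, and Adgre1, Itgam, Mpo, Csf1r and the stromal gene Col1a1 were at most at 4.60 CPM in a library.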

How the data were processed

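The authors aligned 66 bp paired-end reads of poly(A) RNA to mm10 with Rsubread 2.8.1 and used featureCounts with the inbuilt RefSeq annotation to count reads for each Entrez gene. The deposited values are raw counts, 1 table per library. Strand setting and the handling of shared reads are not given in the sources used here, so genes that overlap another counted gene (Cd247, Ubash3a, Gata3, Foxp3 and Zbtb7b) are uncertain.

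GeneIDs were matched to symbols with RefSeq genes of GRCm38.p6 (25275 of 27179), and genes without a symbol, mitochondrial genes and rRNA genes were removed. filterByExpr left 12418 genes, scaled by TMM and tested with edgeR 4.0.16 (robust quasi-likelihood, 1 term per group, two-sided, Benjamini-Hochberg at 0.05) in R 4.3.3. Alternatives included DESeq2 1.42.0 and voomLmFit, the study's test, which fits linear models of limma (version 3.58.1). The script was tested on simulated data. Libraries of a group are repeated samples, and p-values measure the spread between these. An exact permutation test of 2 against 2 cannot go below 0.333 and was not used.

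The genes and all lists were chosen with earlier results of these data known. All 33 genes are named, with Cd4, the other T cell genes called between the guides or with the 4 smallest p per direction against wild type, B cell counterparts of signalling genes, Cd79a, Cd79b, Ms4a1 and Pax5, and markers of other cells at 10 or more counts in a group. Values of a few other genes under this rule are not reported here. The series table repeats the counts and was not used.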

Additional observations from a re-analysis of the deposited data

How the results depend on the processing

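Of the 16 alternatives, the 10 that left out no single library kept Runx3 and Cd2 called in both comparisons with wild type and Tox in that of control sgRNA, and Cd5 in Cd4 sgRNA cells called in 8 of them. Against control sgRNA, DESeq2 called 1 of the T lineage genes and 7 of the other T cell genes. With only the 2 groups compared, 5 T lineage genes (Cd28 was then not tested) and 14 other T cell genes were called in Cd4 sgRNA against wild type, and 3 other T cell genes in control sgRNA against wild type. The fit of Cd4 sgRNA against wild type then left out the control sgRNA libraries, whose replicates stood further apart. Their median absolute log2 difference was 0.275, against 0.0838 in wild type and 0.0861 in Cd4 sgRNA cells. Whether this spread moved the numbers called was not tested. Taking at least 0.5 CPM in every library as detected left 4 T lineage genes in wild type, 5 in control sgRNA and 7 in Cd4 sgRNA cells, where a count over 3 gave 8, 11 and 7, so that Cd4 sgRNA went from the lowest number to the highest. The legacy quasi-likelihood method, chosen after seeing the data, gave the same called T lineage genes.

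With each library left out in turn, the called T lineage genes numbered 0 to 5 in each of the 3 comparisons, and the other T cell genes 0 to 14 for Cd4 sgRNA against control sgRNA, 0 to 18 for control sgRNA against wild type and 0 to 15 for Cd4 sgRNA against wild type. Direction turned for Cd2 in Cd4 sgRNA against control sgRNA (0.24 without control sgRNA replicate 2, range -0.57 to 0.24), Lck there (-0.001 without Cd4 sgRNA replicate 2 and -0.066 without control sgRNA replicate 1, range -0.066 to 0.113), Lcp2 in control sgRNA against wild type (0.24 without wild-type replicate 2 and 0.01 without control sgRNA replicate 1, range -1.01 to 0.24), Zbtb7b there (-0.24 without control sgRNA replicate 2, range -0.24 to 0.58) and Lcp2 in Cd4 sgRNA against wild type (-0.13 without wild-type replicate 1, range -0.13 to 1.12). A fit with 1 library left in a group assumes that it varies like the other groups, whereas the control sgRNA replicates stood further apart than those of the others.

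Replicate numbers did not pair the libraries (r of same-numbered deviations -0.0352, 0.0138 and -0.137). With the replicate block, 0, 3 and 2 T lineage genes were called in Cd4 sgRNA against control sgRNA, control sgRNA against wild type and Cd4 sgRNA against wild type, and 0, 5 and 6 other T cell genes.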
